A study of Homo sapiens with 24 samples.

Results

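The genes described here are 47 genes of homologous recombination and of the Fanconi anemia pathway, the genes that let a cell mend a broken or cross-linked chromosome by copying an intact sister. They were taken by gene symbol, and all 47 were found among the 14493 genes of the count table. mRNA was sequenced from SKBR3 cells, an established HER2-amplified human breast cancer cell line, in 24 libraries that fell into 8 groups of 3 replicates. The 6 drug groups were collected at day 7 after a renewal of the drug on day 3. ND-646, which inhibits ACC, and TVB-3166, which inhibits FASN, were given at 250 nmol/L each, and both block fatty acid synthesis. Bleomycin (10 µmol/L), which breaks DNA, and doxorubicin (10 nmol/L), which traps topoisomerase II on DNA, were the DNA-damaging drugs. Palbociclib (1 µmol/L), a CDK4 and CDK6 inhibitor, and alisertib (500 nmol/L), an Aurora A inhibitor, act on the cell cycle. The study used each drug to bring about therapy-induced senescence, and the remaining groups were untreated cells at day 0 and at day 7. All 24 libraries came from this single cell line, and the labels do not say whether replicates were separate cultures, so p-values measure the spread between these libraries, which may be technical.

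Homologous recombination starts when the ends of a break are sensed and cut back to single strands. RPA coats these strands, BRCA2 and its partners prepare them to pair with the intact sister, and the joined molecules are later taken apart or cut. The Fanconi proteins act on DNA cross-links by attaching ubiquitin to FANCD2 and FANCI, after which the recombination genes complete the repair. Much of this machinery is made in S and G2 phase, when a sister copy is at hand, and it is therefore tied to replication in dividing cells.

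Counts assigned to genes ranged from 29405121 to 44316330 per library, and the lowest count of any of the 47 genes in any library was 10. Levels are given as CPM, counts scaled to the size of a library with TMM normalization. Of 8 genes of the HER2-amplified region and of epithelial cells, 7 were listed, with ERBB2 at 5125 to 8828 CPM, whereas CDH1 was not listed. Of 8 markers of immune, endothelial, and stromal cells, CD68 (3.68 to 56.4 CPM) and COL1A1 (6.46 to 15.2 CPM) were listed and the other 6 were not. A few libraries stood apart within their groups. Bleomycin replicate 2 had the lowest level of its group in 35 of the 47 genes, and the summed level of 17 replication licensing genes was 453 CPM in it against 785 and 763 CPM in the other bleomycin libraries. ND-646 replicate 1 was the lowest of its group in 34 genes, and palbociclib replicate 2 in 31.

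In cells treated with any of the 6 drugs, most of these repair genes or a large minority of them were less expressed than in untreated day-0 cells, and few were more expressed. A gene is called lower or higher here where the quasi-likelihood test of edgeR gave a Benjamini-Hochberg adjusted p-value under 0.05. In ND-646 cells 39 of 47 were lower and 1 was higher, where 18.8% of all genes tested were lower and 19.1% higher. In TVB-3166 cells 40 were lower and 4 higher, against 27.7% and 27.4% of all genes. These 2 groups thus held the largest numbers of lower repair genes. In bleomycin cells 34 were lower and 4 higher, against 25.3% and 24.1% of all genes. In palbociclib cells 30 were lower and 6 higher, against 27.2% and 26.0%. In doxorubicin cells 26 were lower and 6 higher, against 24.8% and 23.7%. In alisertib cells the count was smallest, with 17 lower and 6 higher, against 19.6% and 17.7% of all genes. A change of at least 2-fold with an unadjusted p-value under 0.05 was reached by 35 lower genes in ND-646 cells, 23 in TVB-3166 cells, 21 in bleomycin cells, 18 in palbociclib cells, 1 in doxorubicin cells, and 0 in alisertib cells, against 9.29%, 6.75%, 7.30%, 6.15%, 2.90%, and 1.44% of all genes in that order. By this rule 1 repair gene, ATM in palbociclib cells, was higher, where the share of all genes higher was 11.4%, 10.9%, 11.5%, 10.5%, 10.0%, and 6.47%. Leaving out single libraries moved the alisertib count of lower genes most, with 10 lower genes without alisertib replicate 2, 11 without replicate 3, and 10 in a fit of all 24 libraries. The counts of higher genes were small and moved too, to 3 in ND-646 cells without their replicate 1, 2 in TVB-3166 cells without their replicate 2, 2 in bleomycin cells without their replicate 3 or without day-0 replicate 2, and 3 in palbociclib cells without their replicate 3. Over all genes, untreated day 0 replicate 1 and ND-646 replicate 1 lay furthest from the other libraries of their groups. Without that day-0 library, 37, 39, 31, 31, 27, and 19 repair genes were lower in the order of drugs above, 41 were lower in ND-646 cells without their replicate 1, and 31 in bleomycin cells without their replicate 2. The 6 comparisons share the day-0 libraries and are not independent of each other.

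The median change of the 47 genes was largest with ND-646. It was −1.36 on the log2 scale in ND-646 cells, −0.98 in TVB-3166 cells, −0.87 in bleomycin cells, −0.71 in palbociclib cells, −0.48 in doxorubicin cells, and −0.20 in alisertib cells, while the median of all genes tested lay between −0.01 and 0.02. The 17 replication licensing genes, which load and fire the replicative helicase, moved with them and moved further, with medians of −2.37, −1.69, −1.65, −1.47, −0.77, and −0.41 in the same order of drugs. The 16 mitosis genes had medians of −2.83, −1.74, −1.73, −1.50, −0.80, and −0.56. The part of the cell-cycle genes in these changes was not tested, and in bulk RNA fewer cycling cells and less repair-gene RNA per cell cannot be told apart. CD68, a lysosomal protein used as a macrophage marker, also moved with these groups. It was at 4.19, 6.07, and 5.92 CPM at day 0 and rose by 3.11 in ND-646 cells, 2.41 in TVB-3166 cells, 2.97 in bleomycin cells, 1.00 in palbociclib cells, and 0.87 in doxorubicin cells, with −0.05 in alisertib cells that did not pass the test. The other immune markers, PTPRC and CD3E, were not listed.

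**Figure D1:**
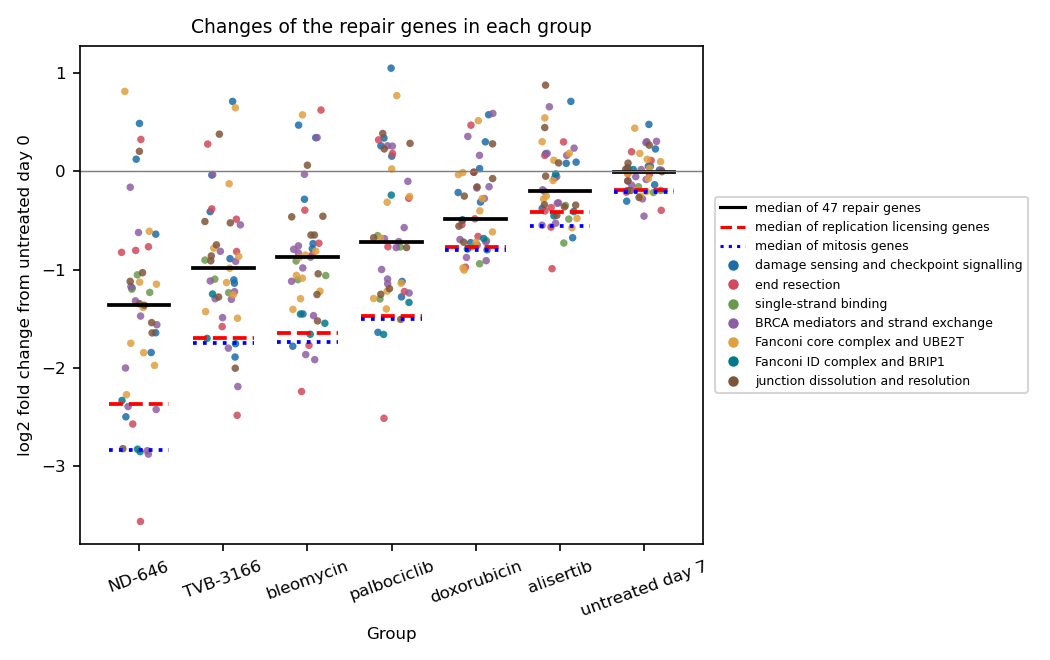
Each point is 1 of the 47 repair genes, coloured by role, at its log2 fold change from untreated day-0 cells (vertical axis) in each of 7 groups (horizontal axis). Black bars mark the median of the 47 genes, and red dashed and blue dotted bars mark the medians of 17 replication licensing and 16 mitosis genes. The black bars lie between −1.36 (ND-646) and −0.20 (alisertib) in the drug groups, and the red and blue bars lie below them in every drug group.

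Across the 6 drugs, 16 of the 47 genes were lower in all, 8 were lower in 5, and 6 were lower in none. The same count was not made over all genes, and the day-0 libraries are shared by the 6 comparisons. Against untreated day-7 cells, 9 of the 47 were lower in alisertib cells (9.49% of all genes). The 16 genes thus cannot all be lower with all 6 drugs against day 7. Falls in alisertib cells given below are against day 0, and not all of them held against day 7. The 6 genes lower with no drug were ATM, TP53BP1, RAD50, PALB2, FANCF, and MUS81. Only FANCF was higher with all 6 drugs, and ATM and RAD50 were each higher with 5. The heat map of changes shows these genes as warm rows among cold ones.

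**Figure D2:**
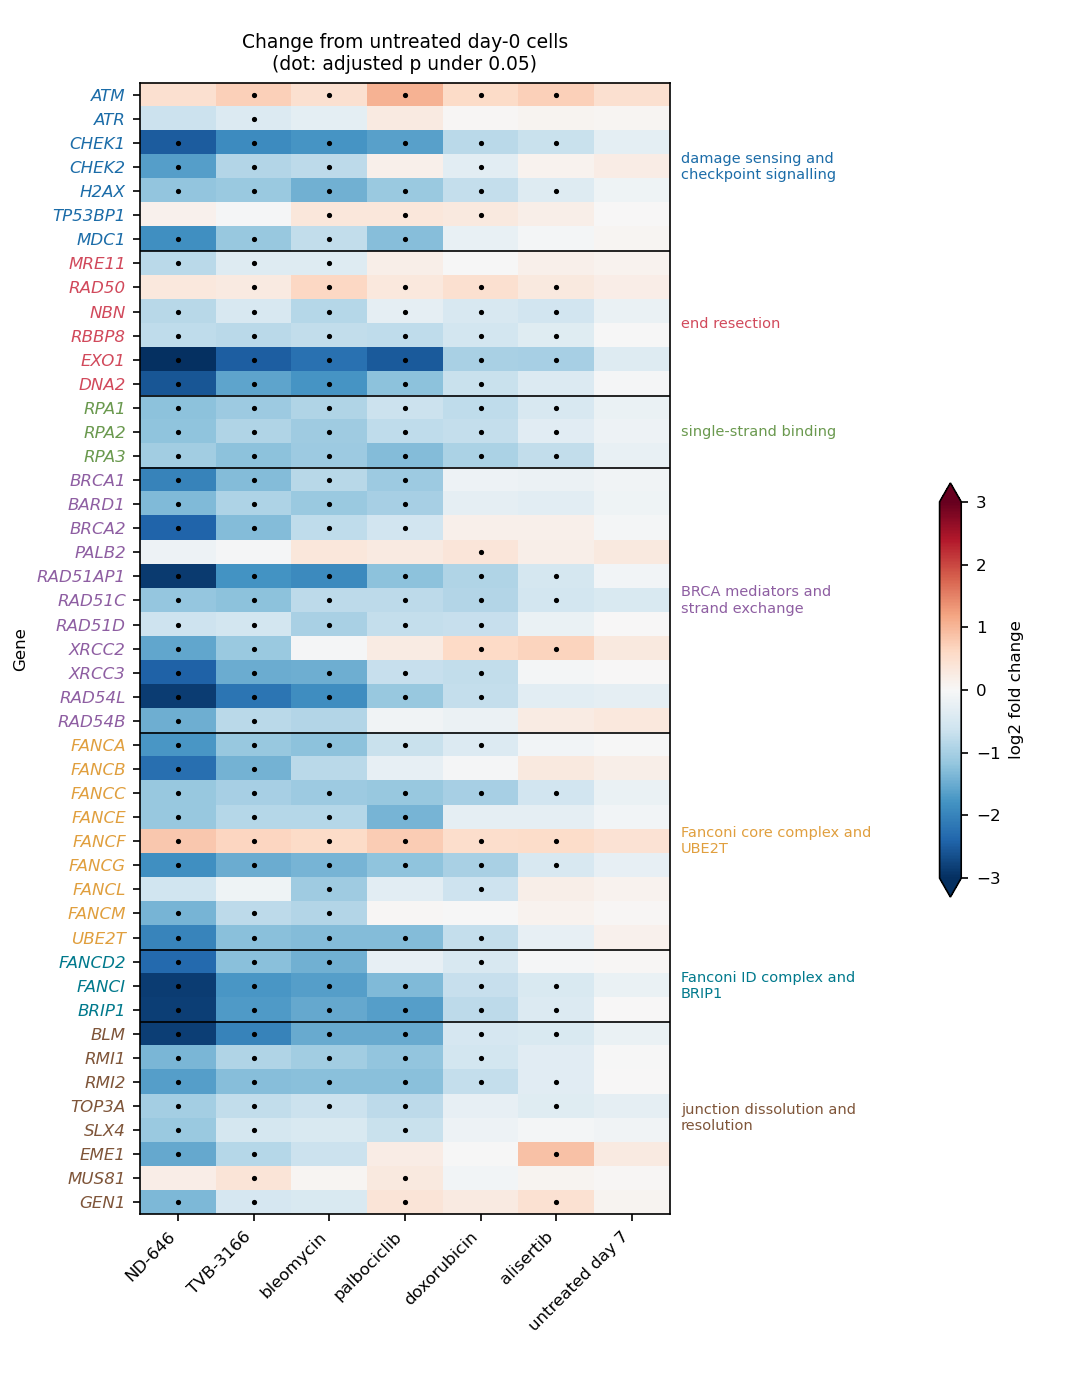
The colour gives the log2 fold change of each of the 47 genes (rows, grouped by role) from untreated day-0 cells in 7 groups (columns), and a dot marks an adjusted p-value under 0.05. Colours saturate at the ends of the scale, so EXO1 in ND-646 cells (−3.56) has the darkest blue. Blue prevails in the columns of ND-646, TVB-3166, bleomycin, and palbociclib, and the column of untreated day-7 cells holds no dot.

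Since many of the genes moved together, their promoters were read. RefSeq promoters of the GRCh38.p14 build, from 250 bases before to 50 bases after the annotated start, were found for 40 of the 47 genes. Letters of the E2F motif (TTTCCCGC, TTTCGCGC, TTTGCCGC, or TTTGGCGC on either strand), which is bound by factors that time S-phase transcription, were found in 6 of the 40 (15%), against 578 of 10793 promoters of listed genes (5.36%). The CHR motif (TTCGAA or its variant TTTGAA, either strand), common at genes of the late cell cycle, was in 6 of 40 (15%), against 10.9% of promoters. The letters CCAAT (either strand), which are bound by NF-Y, were in 20 of 40 (50%), against 36.9%. No match of a motif overlapped a match of another. The mean change over the 6 drugs had a median of −0.92 in the genes with the E2F letters and −0.77 in those without, of −0.99 with CHR and −0.71 without, and of −0.88 with CCAAT and −0.71 without. A match is a description of the letters and not a tested site. The 30-base windows around the E2F letters are shown so that the letters can be read beside the changes of these 6 genes. They lie at chr1:241848197-241848226 on the plus strand (EXO1), chr7:152676102-152676131 minus (XRCC2), chr16:89816801-89816830 minus (FANCA), chr9:95317863-95317892 and chr9:95317737-95317766 minus (FANCC), chr3:10026424-10026453 plus (FANCD2), and chr2:17753859-17753888 plus (GEN1). Capitals mark the E2F letters, or their complement where they lie on the other strand.
EXO1: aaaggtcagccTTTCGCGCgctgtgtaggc
XRCC2: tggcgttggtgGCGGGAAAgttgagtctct
FANCA: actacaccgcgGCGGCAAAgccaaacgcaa
FANCC, upstream match: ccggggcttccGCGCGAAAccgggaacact
FANCC, downstream match: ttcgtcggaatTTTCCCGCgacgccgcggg
FANCD2: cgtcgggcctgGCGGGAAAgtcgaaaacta
GEN1: cagttgcggggTTTCGCGCcgccggagtct

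These same letters lay near the starts of genes that behaved differently against day 0. EXO1 and FANCC were lower with all 6 drugs, whereas XRCC2 was higher in doxorubicin and alisertib cells and GEN1 in palbociclib and alisertib cells. The rise of XRCC2 in doxorubicin cells did not pass the test against untreated day-7 cells. The 250 bases upstream of BLM (chr15:90717096-90717345, plus strand), a gene that fell with all 6 drugs, and of FANCF (chr11:22625824-22626073, minus strand), the gene that rose with all 6 drugs, are set side by side to show that both hold CCAAT. Capitals mark CCAAT or its complement, of which BLM held 3 and FANCF 2.
BLM: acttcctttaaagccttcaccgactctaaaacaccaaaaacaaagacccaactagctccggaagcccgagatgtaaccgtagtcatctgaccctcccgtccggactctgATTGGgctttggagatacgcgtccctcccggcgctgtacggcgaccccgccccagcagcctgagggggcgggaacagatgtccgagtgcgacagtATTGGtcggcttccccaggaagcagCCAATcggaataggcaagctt
FANCF: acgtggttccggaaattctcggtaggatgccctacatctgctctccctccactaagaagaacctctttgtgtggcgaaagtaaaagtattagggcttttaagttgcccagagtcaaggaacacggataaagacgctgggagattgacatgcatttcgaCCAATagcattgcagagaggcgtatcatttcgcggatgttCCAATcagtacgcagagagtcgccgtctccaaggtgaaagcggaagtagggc

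Among the 7 genes that sense damage and signal it, the kinases of the checkpoint went separate ways. CHEK1, the kinase that stalls the cycle when replication is blocked, was at 58.5, 53.1, and 65.4 CPM in untreated day-0 cells, at 9.12, 11.9, and 10.6 CPM in ND-646 cells, and at 21.4, 9.13, and 20.9 CPM in bleomycin cells. All drug-treated libraries lay below all day-0 libraries. CHEK1 fell by 2.5 on the log2 scale in ND-646 cells (SE 0.17, adjusted p = 2.43e-05) and by 0.67 in alisertib cells (SE 0.10, adjusted p = 0.00103), with the other drugs between. ATM, the kinase that answers double-strand breaks, was at 33.7, 33.8, and 39.6 CPM at day 0 and at 70.3, 72.8, and 79.0 CPM in palbociclib cells. It rose by 1.05 in palbociclib cells (SE 0.10, adjusted p = 2.04e-05) and by 0.47 to 0.71 in TVB-3166, bleomycin, doxorubicin, and alisertib cells. The untreated day-7 libraries, at 48.0, 56.2, and 43.8 CPM, also lay above day 0, and against day 7 ATM was higher in palbociclib cells alone (0.59, adjusted p = 0.000693). In ND-646 cells the libraries were at 27.8, 60.6, and 62.6 CPM and overlapped day 0.

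H2AX, the histone variant marked at breaks, was lower with all 6 drugs, by 1.45 in bleomycin cells (SE 0.16, adjusted p = 0.000153) and by 0.38 to 1.19 with the others. CHEK2, the kinase downstream of ATM, was lower with ND-646 (−1.64), TVB-3166, bleomycin, and doxorubicin (−0.31), with values of 0.16 and 0.09 in palbociclib and alisertib cells that did not pass the test. MDC1, the scaffold that binds marked H2AX, was lower with ND-646 (−1.84), TVB-3166, bleomycin, and palbociclib. TP53BP1, which favours end joining over resection, was higher in bleomycin, doxorubicin, and palbociclib cells, by 0.30 to 0.34. ATR, the kinase that answers RPA-coated strands, passed the test as lower in TVB-3166 cells alone (−0.41). ND-646 gave −0.64, which did not pass, with libraries at 25.6, 45.3, and 50.5 CPM, all below those of day 0 (69.3, 54.3, and 64.3 CPM).

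The 6 genes of end resection held both the deepest fall of the set and a rise. EXO1, the nuclease of long-range resection (chr1:242011269-242058450 on GRCh37, plus strand), was at 44.7, 44.6, and 46.6 CPM in untreated day-0 cells (45.3 ± 1.14, SD, n = 3). It was at 3.43, 3.30, and 4.84 CPM in ND-646 cells, at 9.20, 7.62, and 7.43 in TVB-3166 cells, and at 12.9, 4.54, and 11.3 in bleomycin cells. In palbociclib cells it was at 8.43, 6.25, and 9.12 CPM, in doxorubicin cells at 21.8, 23.0, and 23.8, and in alisertib cells at 23.3, 20.4, and 24.8. All 18 drug-treated libraries lay below all day-0 libraries, and doxorubicin and alisertib libraries overlapped each other above the other 4 drugs. EXO1 fell by 3.56 on the log2 scale in ND-646 cells (SE 0.20, adjusted p = 1.52e-05) and by 0.97 in doxorubicin cells (SE 0.09, adjusted p = 4.45e-05). The change was −2.51 in palbociclib cells (SE 0.14, adjusted p = 1.59e-06). The untreated day-7 libraries, at 34.9, 30.6, and 36.9 CPM, also lay below day 0, with a change of −0.40 that did not pass the test (adjusted p = 0.0833).

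DNA2, the other long-range nuclease, was lower with all drugs except alisertib, by up to 2.57 in ND-646 cells (SE 0.22, adjusted p = 5.6e-05). The break-binding MRE11, RAD50, and NBN proteins form a complex, but their mRNAs did not move as a unit. RAD50 was at 67.0, 57.0, and 62.1 CPM at day 0, at 92.2, 101, and 93.1 CPM in bleomycin cells, and at 85.2, 82.4, and 88.3 CPM in doxorubicin cells. The 3 bleomycin libraries were the highest of all 24, and both drugs lay above day 0 without overlap. RAD50 rose by 0.62 in bleomycin cells (SE 0.10, adjusted p = 0.000907), by 0.47 in doxorubicin cells (SE 0.09, adjusted p = 0.00192), and by 0.28 to 0.32 in TVB-3166, palbociclib, and alisertib cells. Against untreated day-7 cells only the rises in bleomycin (0.44) and doxorubicin (0.29) cells passed the test. NBN was lower with all 6 drugs, by 0.27 to 0.85, MRE11 was lower with ND-646, TVB-3166, and bleomycin, by 0.38 to 0.80, and RBBP8, which starts resection with MRE11, was lower with all 6, by 0.37 to 0.81.

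RPA1, RPA2, and RPA3, the subunits of the protein that coats single-stranded DNA, were lower with all 6 drugs. RPA2 was at 40.4, 42.7, and 44.7 CPM at day 0, at 21.1, 20.9, and 19.2 CPM in bleomycin cells, and at 34.2, 32.1, and 34.2 CPM in alisertib cells. No drug-treated library overlapped day 0. The changes of the 3 subunits ranged from −1.30 to −0.35, against −3.56 to −0.97 for EXO1. RPA3, whose exons overlap those of UMAD1, fell by 1.30 in palbociclib cells (SE 0.15, adjusted p = 6e-05) and by 0.73 in alisertib cells (SE 0.13, adjusted p = 0.00213).

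Of the 11 genes of the BRCA mediators and of strand exchange, 10 were lower in ND-646 cells, 10 in TVB-3166 cells, 8 in bleomycin cells, 8 in palbociclib cells, 5 in doxorubicin cells, and 2 in alisertib cells. The shares of all genes lower were 18.8%, 27.7%, 25.3%, 27.2%, 24.8%, and 19.6% in that order. BRCA2, a mediator of strand exchange (chr13:32889223-32974405 on GRCh37, plus strand), was at 15.9, 13.2, and 15.2 CPM in untreated day-0 cells and at 13.3, 15.8, and 13.4 CPM in untreated day-7 cells. It was at 1.37, 3.37, and 3.69 CPM in ND-646 cells, at 7.13, 5.28, and 5.62 in TVB-3166 cells, and at 9.48, 4.98, and 11.7 in bleomycin cells. It was at 9.30, 8.51, and 12.1 CPM in palbociclib cells, at 15.5, 14.7, and 19.0 in doxorubicin cells, and at 17.5, 15.2, and 17.0 in alisertib cells. ND-646 libraries were below those of every other group, bleomycin and palbociclib libraries overlapped each other below day 0, and doxorubicin and alisertib libraries overlapped day 0. BRCA2 fell by 2.39 in ND-646 cells (SE 0.34, adjusted p = 0.000819), by 1.30 in TVB-3166 cells (SE 0.16, adjusted p = 5.33e-05), by 0.76 in bleomycin cells (SE 0.26, adjusted p = 0.0378), and by 0.57 in palbociclib cells (SE 0.16, adjusted p = 0.0112). In doxorubicin and alisertib cells its changes were 0.16 (95% confidence interval −0.14 to 0.46) and 0.16 (−0.10 to 0.43) and did not pass the test.

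BRCA1, which directs resection and recruits BRCA2 through PALB2, was lower with the same 4 drugs as BRCA2. It was at 28.5, 21.2, and 22.7 CPM at day 0, at 3.90, 7.36, and 6.92 in ND-646 cells, at 19.5, 6.67, and 14.6 in bleomycin cells, and at 20.3, 18.8, and 25.5 in doxorubicin cells. The bleomycin libraries lay below day 0 but were spread widely. BRCA1 fell by 2.0 in ND-646 cells (SE 0.26, adjusted p = 0.000581), by 1.30 in TVB-3166 cells, and by 1.09 in palbociclib cells. The fall in bleomycin cells (−0.83, SE 0.31, adjusted p = 0.0486) no longer passed without bleomycin replicate 2 (−0.51), and those of BRCA1 and BRCA2 did not pass against untreated day-7 cells. BARD1, the partner of BRCA1, was lower with these 4 drugs, by 0.91 to 1.32.

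PALB2, the bridge between BRCA1 and BRCA2, was lower with no drug. It was at 21.5, 19.2, and 23.7 CPM at day 0, at 25.9, 25.2, and 30.8 CPM in doxorubicin cells, and at 14.9, 19.8, and 23.4 CPM in ND-646 cells, which overlapped day 0. It rose by 0.36 in doxorubicin cells (SE 0.12, adjusted p = 0.0329), but not against untreated day-7 cells (0.09), and against these it was lower in TVB-3166 cells (−0.31, adjusted p = 0.022). RAD51AP1, which helps strands pair, was at 24.8, 26.6, and 33.1 CPM at day 0 and at 3.43, 3.48, and 4.67 CPM in ND-646 cells. It was lower with all 6 drugs, by 2.88 in ND-646 cells (SE 0.21, adjusted p = 3.03e-05) down to 0.53 in alisertib cells (SE 0.14, adjusted p = 0.016). RAD54L, a motor protein of strand exchange, fell by 2.84 in ND-646 cells (SE 0.28, adjusted p = 0.000117) and was lower with 5 drugs, and its relative RAD54B was lower with ND-646 and TVB-3166.

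RAD51C, RAD51D, XRCC2, and XRCC3, which act together in strand exchange, did not share a pattern. RAD51C was lower with all 6 drugs, by 0.55 to 1.22, while RAD51D and XRCC3 were lower with all but alisertib. The untreated day-7 libraries of RAD51C were at 4.87, 4.14, and 5.94 CPM. Its alisertib libraries, at 5.03, 4.55, and 4.59 CPM, overlapped them. XRCC2 was at 8.82, 8.66, and 10.3 CPM at day 0 and at 12, 10.7, and 11.3 CPM in untreated day-7 cells. It was at 1.76, 3.98, and 3.69 CPM in ND-646 cells, at 4.62, 4.43, and 3.73 in TVB-3166 cells, and at 8.64, 5.97, and 12.5 in bleomycin cells. It was at 11.4, 9.18, and 12.7 CPM in palbociclib cells, at 14.1, 12.2, and 15.2 in doxorubicin cells, and at 14.9, 14.3, and 14.6 in alisertib cells. Thus the lipogenesis inhibitors lay below day 0, doxorubicin and alisertib lay above it, and bleomycin and palbociclib overlapped it. XRCC2 fell by 1.56 in ND-646 cells (SE 0.31, adjusted p = 0.00438) and by 1.11 in TVB-3166 cells (SE 0.17, adjusted p = 0.000194), and rose by 0.59 in doxorubicin cells (SE 0.14, adjusted p = 0.00622) and by 0.66 in alisertib cells (SE 0.12, adjusted p = 0.00277). Of these rises, only that in alisertib cells remained past the threshold against untreated day-7 cells (0.38, adjusted p = 0.0279). XRCC2 was lower in TVB-3166 cells against day 7 too.

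**Figure D3:**
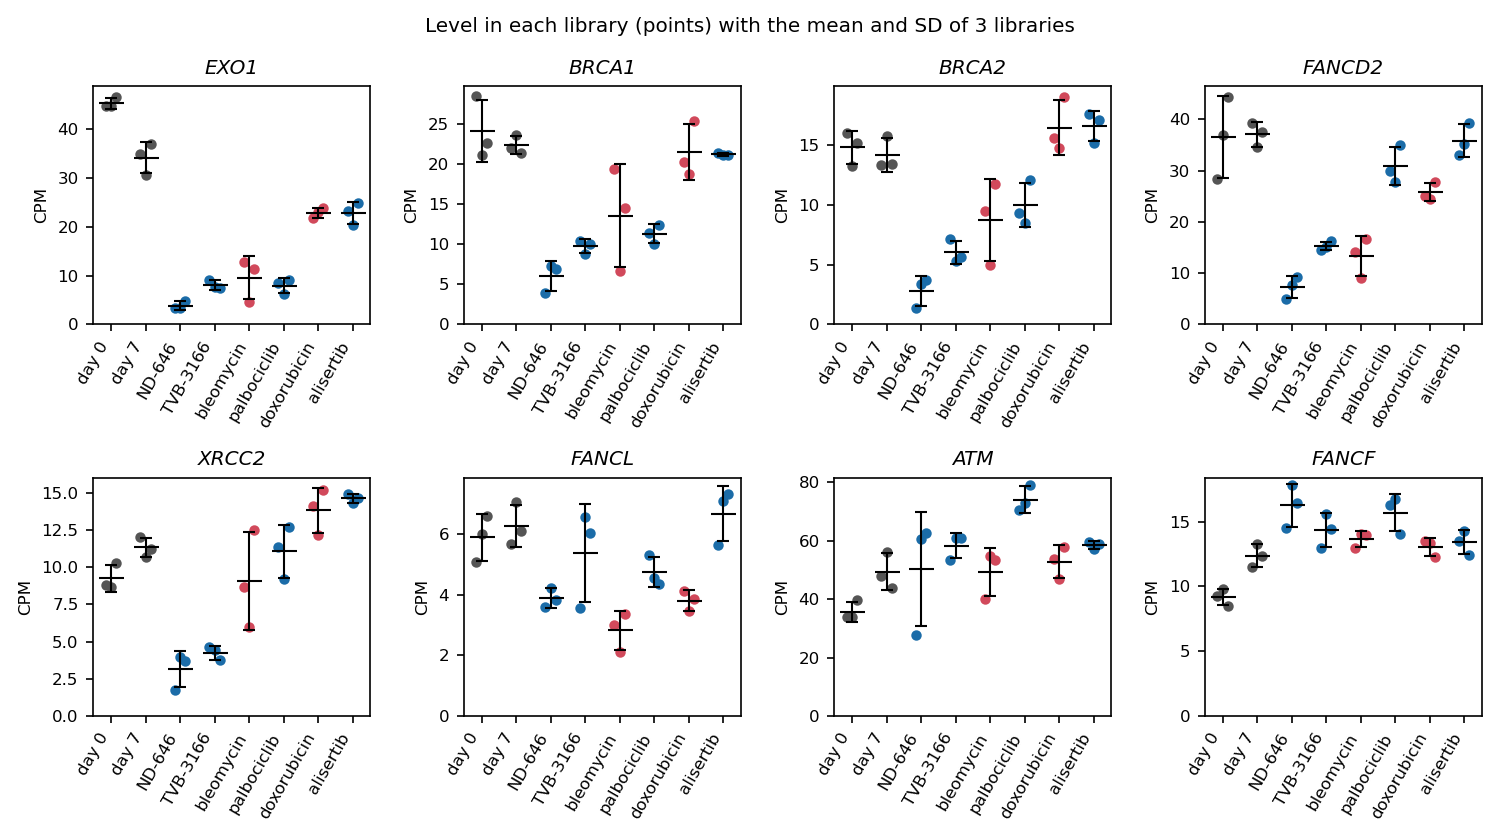
Points are CPM levels of 8 repair genes (vertical axes, linear from 0) in each of the 24 libraries by group (horizontal axis), and bars give the mean and SD of 3 libraries. Grey is untreated, red is bleomycin or doxorubicin, and blue is another drug. On average EXO1, BRCA1, BRCA2, XRCC2, and FANCD2 are lowest in ND-646 cells, FANCL in bleomycin cells, and ATM and FANCF in untreated day-0 cells.

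Of the 9 genes of the Fanconi core complex and its ubiquitin-conjugating enzyme UBE2T, 7 were lower in ND-646, TVB-3166, and bleomycin cells, 5 in doxorubicin and palbociclib cells, and 2 in alisertib cells. The shares of all genes lower were 18.8%, 27.7%, 25.3%, 24.8%, 27.2%, and 19.6% in that order. FANCB, a subunit of the catalytic module encoded on the X chromosome (chrX:14708510-14891377 on GRCh37, minus strand), was at 6.10, 4.89, and 6.27 CPM at day 0, at 0.728, 1.26, and 1.58 CPM in ND-646 cells, and at 2.07, 1.83, and 2.50 CPM in TVB-3166 cells. Its bleomycin libraries were at 4.13, 1.56, and 4.12 CPM and its doxorubicin libraries at 5.06, 5.25, and 6.47 CPM. Only the lipogenesis inhibitors passed the test for FANCB, with falls by 2.27 (SE 0.32, adjusted p = 0.000779) and by 1.43 (SE 0.21, adjusted p = 0.000166), while bleomycin gave −0.81 (adjusted p = 0.0671). FANCG, a bridging subunit, was at 35.4, 40.1, and 37.7 CPM at day 0 and at 12, 8.75, and 11.1 CPM in ND-646 cells. It was lower with all 6 drugs, by 0.48 to 1.84, as was FANCC, by 0.57 to 1.15. UBE2T and FANCA were lower with all but alisertib, FANCE with ND-646, TVB-3166, bleomycin, and palbociclib, and FANCM, the translocase that brings the complex to DNA, with ND-646, TVB-3166, and bleomycin.

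FANCF, the adaptor of the core complex, was the exception. It was at 9.25, 9.78, and 8.52 CPM in untreated day-0 cells, at 14.5, 17.8, and 16.5 CPM in ND-646 cells, and at 16.3, 16.7, and 14.1 CPM in palbociclib cells. The other drug-treated libraries were at 12.2 to 15.6 CPM, all above day 0. FANCF rose by 0.81 in ND-646 cells (SE 0.17, adjusted p = 0.00585), by 0.77 in palbociclib cells (SE 0.13, adjusted p = 0.000662), and by 0.52 to 0.65 with the other drugs. The untreated day-7 libraries were at 11.5, 13.3, and 12.3 CPM and also lay above day 0, and against day 7 only palbociclib passed the test (0.35, adjusted p = 0.0284), with 0.10 to 0.39 for the other drugs. FANCL, the ubiquitin ligase of the complex, was at 5.06, 6.01, and 6.60 CPM at day 0, at 2.99, 2.11, and 3.35 CPM in bleomycin cells, and at 4.12, 3.45, and 3.84 CPM in doxorubicin cells. The 3 bleomycin libraries were the lowest of all 24. FANCL fell by 1.06 in bleomycin cells (SE 0.24, adjusted p = 0.00475) and by 0.62 in doxorubicin cells (SE 0.18, adjusted p = 0.0159) and passed the test with no other drug. The ND-646 value of −0.61 missed it (adjusted p = 0.053).

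FANCD2 and FANCI, the proteins that the core complex marks, and BRIP1, a helicase that works with BRCA1, were all lower in ND-646, TVB-3166, bleomycin, and doxorubicin cells. FANCD2 was at 28.3, 37, and 44.3 CPM at day 0, at 4.97, 7.64, and 9.27 CPM in ND-646 cells, and at 14.2, 9.13, and 16.6 CPM in bleomycin cells. Its palbociclib libraries, at 30.04, 27.7, and 35.02 CPM, and its alisertib libraries, at 33.0, 35.2, and 39.4 CPM, overlapped day 0. FANCD2 fell by 2.33 in ND-646 cells (SE 0.27, adjusted p = 0.00029), by 1.45 in bleomycin cells (SE 0.23, adjusted p = 0.00083), and by 0.49 in doxorubicin cells (SE 0.15, adjusted p = 0.0223), with −0.24 in palbociclib cells (adjusted p = 0.226). FANCI, its partner, fell by 2.85 in ND-646 cells (SE 0.15, adjusted p = 1.52e-05) and gave −1.33 in palbociclib cells (adjusted p = 4.43e-06). BRIP1 was at 8.67, 8.18, and 8.61 CPM at day 0, at 0.428, 1.61, and 1.51 CPM in ND-646 cells, and at 2.81, 2.25, and 2.99 CPM in palbociclib cells. It was lower with all 6 drugs, by 2.83 in ND-646 cells (SE 0.40, adjusted p = 0.000902) down to 0.41 in alisertib cells (SE 0.14, adjusted p = 0.0398). Against untreated day-7 cells, 0 of these 3 genes were lower in alisertib cells.

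Of the 8 genes that undo or cut joined molecules, the dissolving enzymes were lower with most drugs. BLM, the helicase that dissolves double junctions, was at 31.0, 27.8, and 29.2 CPM at day 0, at 3.00, 4.20, and 5.30 CPM in ND-646 cells, at 12.8, 5.65, and 12.2 CPM in bleomycin cells, and at 20.6, 19.1, and 22.1 CPM in doxorubicin cells. BLM was below day 0 in all drug-treated libraries. It fell by 2.82 in ND-646 cells (SE 0.23, adjusted p = 4.6e-05), by 2.0 in TVB-3166 cells, by 1.52 in bleomycin cells, by 1.51 in palbociclib cells, by 0.50 in doxorubicin cells, and by 0.45 in alisertib cells. Its partners RMI1 and RMI2 were lower with 5 and 6 drugs, and the topoisomerase TOP3A with 5.

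The nucleases that cut junctions moved less evenly. MUS81, whose exons overlap those of CFL1, was at 22.4, 26.6, and 24.2 CPM at day 0 and at 29.8, 33.2, and 32.0 CPM in TVB-3166 cells. It rose by 0.38 in TVB-3166 cells (SE 0.11, adjusted p = 0.0114) and by 0.29 in palbociclib cells (SE 0.11, adjusted p = 0.0403) and was lower with no drug. EME1, the partner of MUS81, was at 2.90, 3.29, and 3.22 CPM at day 0 and at 4.02, 6.13, and 7.07 CPM in alisertib cells, a rise by 0.88 (SE 0.22, adjusted p = 0.012), and was lower with ND-646 (−1.54) and TVB-3166 (−0.86). GEN1, a resolvase, was higher in palbociclib and alisertib cells, by 0.39 and 0.45, and lower with ND-646 and TVB-3166. Of the 8 genes that act on joined molecules, 2 were higher than at day 0 in palbociclib cells and 2 in alisertib cells, where 26.0% and 17.7% of all genes were. Against untreated day-7 cells it was 1 in each, where 22.0% and 9.55% of all genes were higher, so not all of these rises held. SLX4, the scaffold for these nucleases, was lower with ND-646, TVB-3166, and palbociclib, by 0.52 to 1.12.

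Exons of 18 of the 47 genes overlap those of another listed gene, and the use of strand in the counting is not given in the sources used here, so reads of the overlapping bases cannot be assigned with certainty. They are ATM, CHEK1, CHEK2, TP53BP1, MDC1, NBN, RBBP8, RPA1, RPA3, XRCC3, RAD54L, FANCA, FANCC, FANCL, FANCI, EME1, MUS81, and GEN1. CHEK1 shares exon bases with STT3A on the same strand.

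Between untreated cells at day 7 and at day 0 no repair gene passed the same test. By edgeR 0 of the 47 were lower and 0 higher, where 0.198% of all genes were lower and 0.389% higher. At an unadjusted p-value under 0.05, 5 were lower and 4 higher, and DESeq2 called 1 lower and 1 higher. The changes ranged from −0.46 to 0.48 with a median of −0.00, and the licensing genes had a median of −0.19. No repair gene changed by 2-fold with an unadjusted p-value under 0.05, against 0.330% of all genes lower and 1.66% higher. Set against day 7 in place of day 0, the drugs gave close counts of lower repair genes apart from alisertib. The labels name a refeed on day 3 for each drug group and none for untreated day 7. Replicate numbers paired untreated day 7 with bleomycin and with alisertib by the rule given under processing. These fits held no pairing. In ND-646 cells 39 were lower and 0 higher (17.1% and 17.2% of all genes), in TVB-3166 cells 41 and 1 (26.1% and 25.4%), and in bleomycin cells 36 and 2 (23.2% and 22.4%). In palbociclib cells 29 were lower and 5 higher (22.9% and 22.0%), in doxorubicin cells 25 and 2 (21.5% and 21.9%), and in alisertib cells 9 and 2 (9.49% and 9.55%). Of the 9 lower in alisertib cells, 3 were of end resection, 2 of RPA, and 0 of FANCD2, FANCI, and BRIP1. The other roles held 1 each.

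The DNA-damaging drugs were then set against the other 4 drugs, as the mean of bleomycin and doxorubicin minus the mean of ND-646, TVB-3166, palbociclib, and alisertib on the log2 scale, in a fit of all 24 libraries. Of the 47 genes, 14 were higher with the DNA-damaging drugs and 3 were lower, where 19.0% of all genes were higher and 18.0% lower. The differences were small, since none reached 2-fold (against 0.703% of all genes lower and 3.10% higher at an unadjusted p-value under 0.05). The libraries of the 2 sides overlapped for all 47 genes, and overlap was not counted over all genes. EXO1 (0.77, SE 0.14, adjusted p = 0.000204), BRCA2 (0.72, SE 0.15, adjusted p = 0.00105), XRCC2 (0.71, SE 0.14, adjusted p = 0.000337), BLM (0.67, SE 0.12, adjusted p = 0.00022), and BRCA1 (0.64, SE 0.15, adjusted p = 0.00196) differed most. The other genes that were higher were MDC1 (0.60), FANCB (0.48), FANCI (0.42), CHEK1 (0.38), FANCE (0.34), PALB2 (0.28), SLX4 and TOP3A (0.27 each), and RAD50 (0.23). The 3 lower genes were FANCL (−0.63, SE 0.13, adjusted p = 0.000674), RAD51D (−0.33, SE 0.09, adjusted p = 0.00595), and MUS81 (−0.25, SE 0.07, adjusted p = 0.00969). ATM (−0.23) and FANCF (−0.16) came next and did not pass. The licensing genes had a median of 0.20 with 6 of 17 higher, and the mitosis genes a median of 0.36 with 8 of 16 higher, against 0.13 for the repair genes and −0.01 for all genes. The calls of CHEK1, FANCB, and PALB2 were lost on leaving out single bleomycin or doxorubicin libraries, and the count of higher genes was 10 without bleomycin replicate 1 or without doxorubicin replicate 3 and 19 without bleomycin replicate 2. The count of lower genes was 6 without ND-646 replicate 1.

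**Figure D4:**
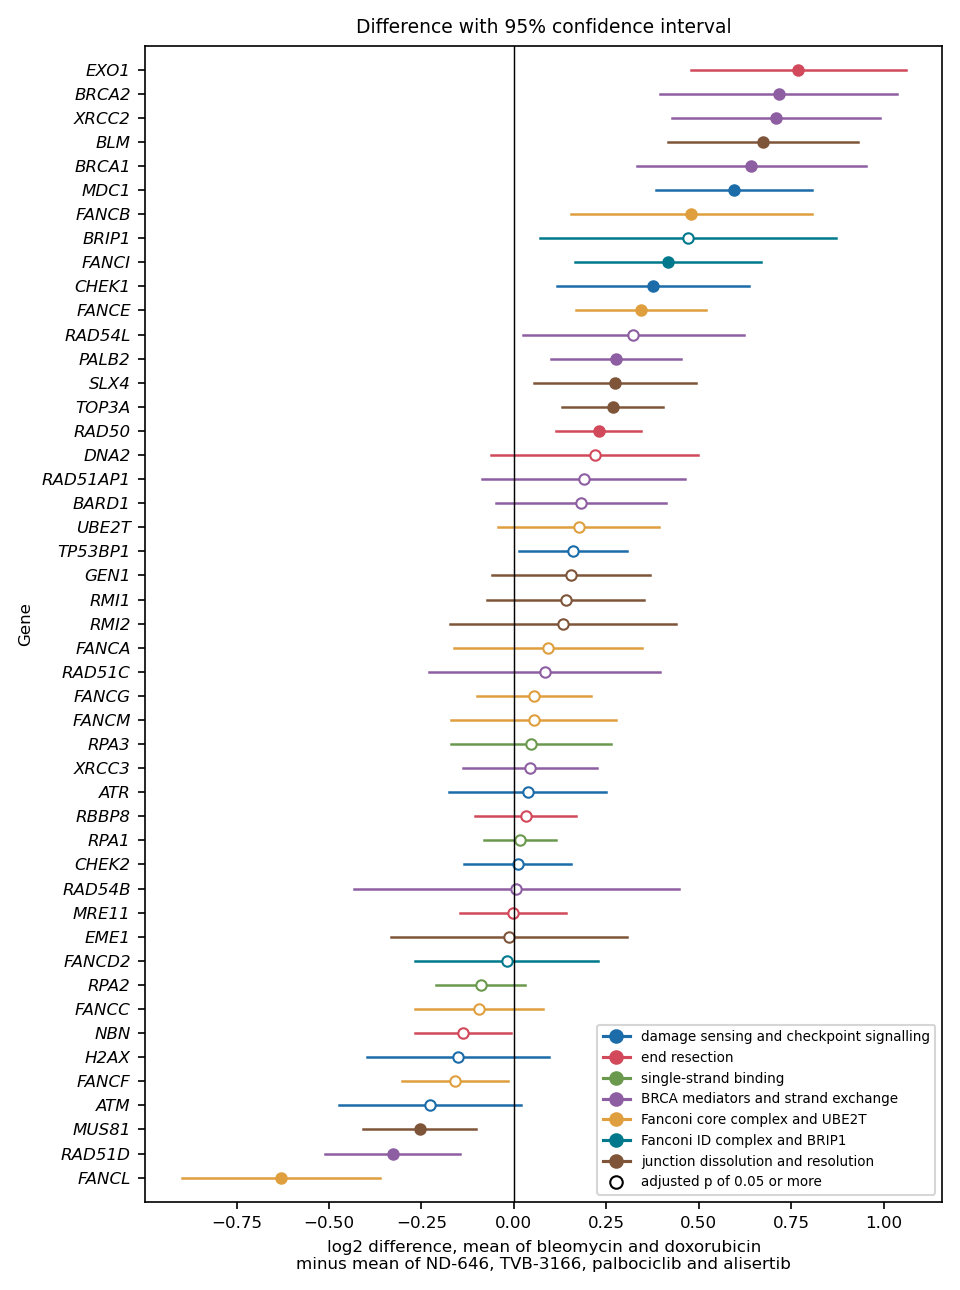
Points are the log2 difference of each of the 47 genes (rows) between the mean of bleomycin and doxorubicin and the mean of the other 4 drugs (horizontal axis), with lines for 95% confidence intervals, colours for role, and open points for an adjusted p-value of 0.05 or more. Filled points run from 0.77 (EXO1) to 0.23 (RAD50) on the right, and on the left only MUS81, RAD51D, and FANCL are filled.

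This average joined opposite differences. Against ND-646 and TVB-3166 alone, 34 repair genes were higher with the DNA-damaging drugs and 4 lower, where 23.5% and 24.1% of all genes were. Against palbociclib and alisertib alone, 2 were higher and 19 lower, where 16.2% and 16.5% of all genes were. Each DNA-damaging drug was then compared with each other drug in the same fit. Bleomycin against ND-646 gave 27 higher and 0 lower (15.2% and 16.3% of all genes), with 3 lower at an unadjusted p-value under 0.05. Doxorubicin against ND-646 gave 35 higher and 2 lower (20.9% and 23.1%), and against TVB-3166 29 higher and 1 lower (17.6% and 15.8%). Bleomycin against alisertib gave 1 higher and 37 lower (17.4% and 19.0%). Thus most genes were higher with the DNA-damaging drug than with ND-646, and most were lower with bleomycin than with alisertib.

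Bleomycin and TVB-3166 were the closest of the 8 pairs in cell-cycle genes, with median differences of 0.03 for the licensing genes and −0.00 for the mitosis genes. Between them 4 of the 47 repair genes were higher and 4 lower in bleomycin cells, where 14.9% and 14.4% of all genes were. The higher genes were XRCC2 (1.09, SE 0.23, adjusted p = 0.00129), TP53BP1 and PALB2 (0.38 each), and RAD50 (0.34). The lower genes were FANCL (−0.93, SE 0.21, adjusted p = 0.00193), RAD51D (−0.44), NBN (−0.36), and MUS81 (−0.32). For the other 39 genes the difference did not pass the test. That of BRCA2 was 0.54, with a 95% confidence interval of −0.00 to 1.08.

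Bleomycin against palbociclib gave 3 higher and 16 lower genes (15.6% and 15.9% of all genes), with FANCD2 the lowest at −1.21 (SE 0.20, adjusted p = 7.78e-05) and with MDC1, RAD50, and FANCE higher. RAD50 was the only gene higher in bleomycin cells than with each of the other 4 drugs, by 0.28 to 0.34. Doxorubicin against palbociclib gave 11 higher and 2 lower (8.30% and 6.61%), among them EXO1 (1.53, SE 0.23, adjusted p = 0.000157) and FANCE (1.11) higher and CHEK2 (−0.48) and MUS81 (−0.37) lower. Doxorubicin against alisertib gave 0 higher and 9 lower by edgeR (7.20% and 5.75% of all genes), and at an unadjusted p-value under 0.05 also 0 higher. The 9 were CHEK2, RPA1, RPA2, RAD51D, XRCC3, FANCC, FANCG, FANCL, and EME1, with EME1 lowest (−0.90, SE 0.23, adjusted p = 0.0115), while none of the 16 mitosis genes and 3 of the 17 licensing genes were lower. EXO1 differed by 0.00 (95% confidence interval −0.46 to 0.47) and BRCA2 by −0.01 (−0.53 to 0.50) between doxorubicin and alisertib. The pairs of this and the preceding paragraphs were fitted once, without DESeq2, a replicate block, or leaving out libraries. Replicate numbers paired bleomycin with each of the other 4 drugs, and doxorubicin with palbociclib, by the rule given under processing. How far these counts depend on single libraries or on the pairing was not tested.

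**Figure D5:**
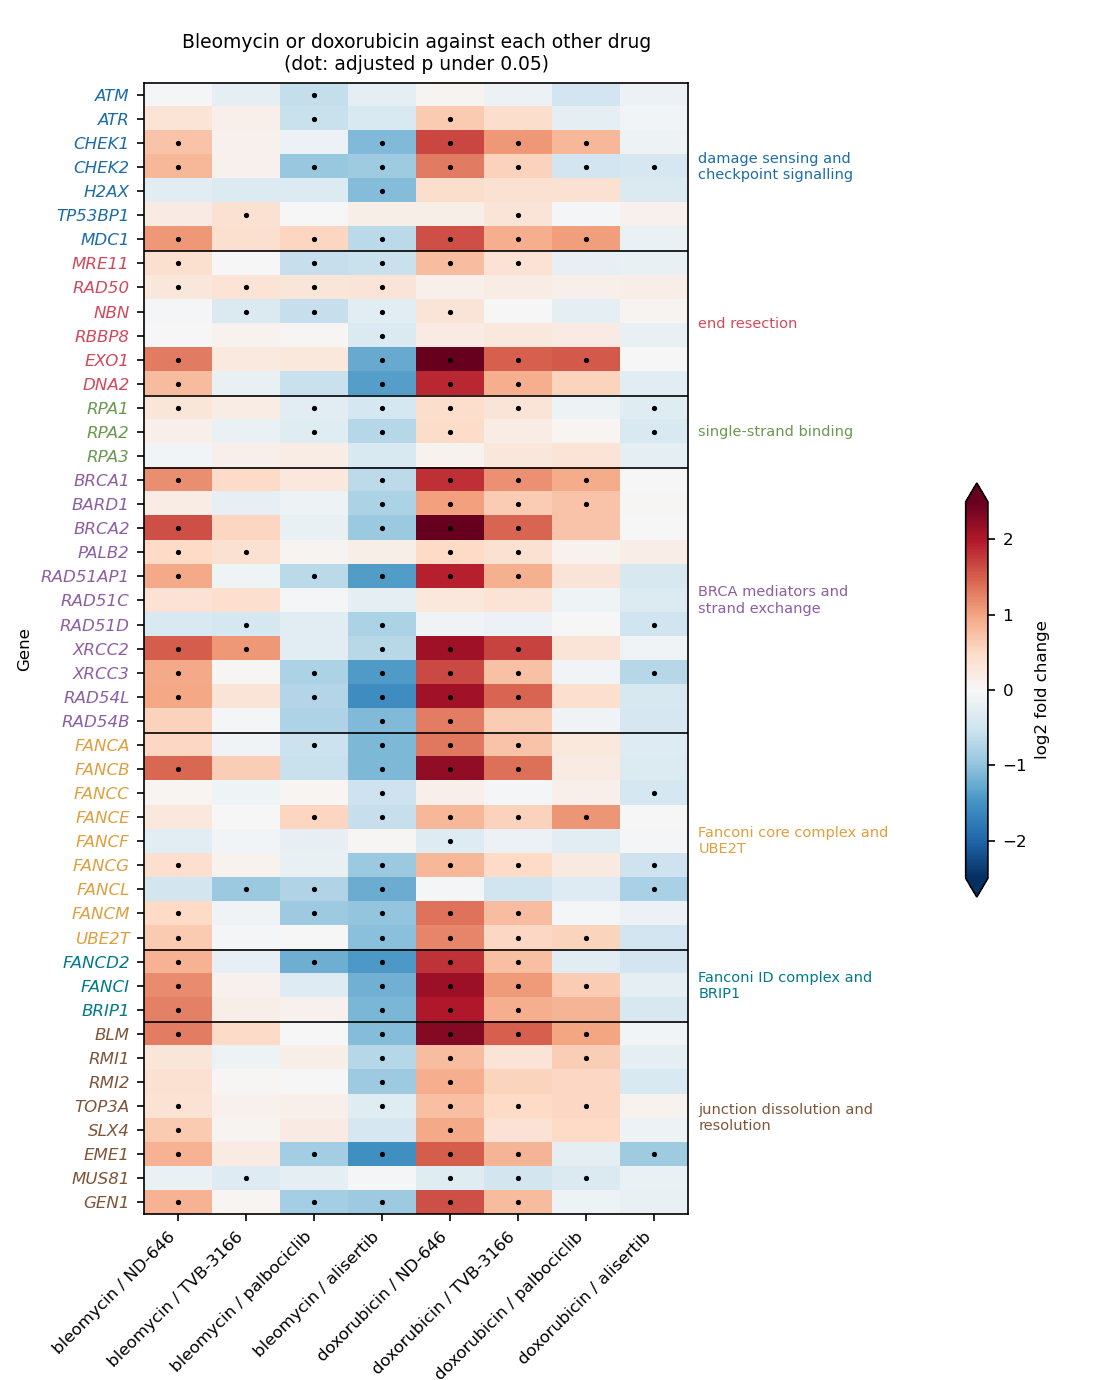
The colour gives the log2 difference of each of the 47 genes (rows) in 8 pairs (columns) of bleomycin or doxorubicin against another drug, and a dot marks an adjusted p-value under 0.05. The columns against ND-646 are mostly red (27 and 35 genes higher), the column of bleomycin against alisertib is mostly blue (37 genes lower), and the column of bleomycin against TVB-3166 is pale, with 8 dots.

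The 2 DNA-damaging drugs also differed from each other. In bleomycin cells 25 of the 47 genes were lower than in doxorubicin cells and 0 were higher, where 7.98% and 7.85% of all genes were, and at an unadjusted p-value under 0.05 and by DESeq2 also 0 were higher. EXO1 (−1.26, SE 0.23, adjusted p = 0.00136), BLM (−1.01, SE 0.20, adjusted p = 0.00232), RAD51AP1 (−1.0), CHEK1 (−0.97), and FANCD2 (−0.95) were lower in bleomycin cells, and BRCA2 was too (−0.91, SE 0.25, adjusted p = 0.018). BRCA1 and XRCC2 gave −0.67 and −0.61 and did not pass. With a 2-fold change and an unadjusted p-value under 0.05, 4 were lower and 0 higher, against 2.15% and 1.85% of all genes. The licensing genes moved likewise, with 16 of 17 lower and a median of −0.93. Without bleomycin replicate 2, the count of lower repair genes was 13, and BRCA2 gave −0.63 and was not called. Doses and mechanisms differed between the drugs and cannot be told apart.

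The lipogenesis inhibitors differed in depth. In ND-646 cells 15 of the 47 genes were lower than in TVB-3166 cells and 0 higher, where 4.50% and 4.51% of all genes were, and at an unadjusted p-value under 0.05 and by DESeq2 also 0 were higher. FANCD2 (−1.07, SE 0.20, adjusted p = 0.00241), FANCI (−1.08), RAD51AP1 (−1.06), EXO1 (−1.06), and BRCA2 (−1.08, SE 0.28, adjusted p = 0.019) were lower, along with 10 of 17 licensing and 15 of 16 mitosis genes. With a 2-fold change and an unadjusted p-value under 0.05, 6 were lower and 0 higher, against 2.30% and 1.21% of all genes. The count of 15 rested on the spread shared across all groups, since 1 gene was lower when only the 6 libraries of both groups were fitted, and 4 when their replicate numbers, which pair these libraries, were added as a block. The count was 8 without TVB-3166 replicate 1 and 9 without replicate 2.

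How closely each repair gene followed the licensing genes was described by the correlation of its log2 CPM with their mean over the 8 group means. All points share the normalization of the table, and the share of all genes with a correlation over 0.9 was not counted. Pearson's r was over 0.9 for 25 of the 47 genes, led by CHEK1 (0.994), DNA2 (0.991), and FANCI (0.988), and it was below 0 for 5, namely TP53BP1 (−0.282), ATM (−0.318), RAD50 (−0.579), MUS81 (−0.634), and FANCF (−0.800). BRCA2 (0.888) and XRCC2 (0.746) were between. Among the 5 genes whose 8 group means were most like those of BRCA2, of 14077 genes, were CHUK (r = 0.990), CEP76 (0.990), ATAD5 (0.985), and POLQ (0.982), and none of these is among the 47.

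The wider pathway was followed in 42 further genes of recombination, the Fanconi pathway, and the checkpoint. Their changes had medians of −0.48 in ND-646 cells, −0.53 in TVB-3166 cells, −0.51 in bleomycin cells, −0.28 in palbociclib cells, −0.24 in doxorubicin cells, and −0.18 in alisertib cells. Of the 42, 20, 21, 23, 17, 16, and 16 were lower in that order and 0, 2, 2, 3, 2, and 3 were higher. Of all genes, 18.8%, 27.7%, 25.3%, 27.2%, 24.8%, and 19.6% were lower in the same order. The shares higher were 19.1%, 27.4%, 24.1%, 26.0%, 23.7%, and 17.7%. Between the DNA-damaging and the other drugs 13 were higher and 4 lower, where 19.0% and 18.0% of all genes were. HELB, a helicase that restrains resection, had the largest difference (1.14, SE 0.15, adjusted p = 4.32e-06), while SLX1A and SLX1B, near-identical copies whose reads may be split, were lowest (−0.48 and −0.51). Together with the 47 genes, 59 of 89 were lower in ND-646 cells, 61 in TVB-3166 cells, 57 in bleomycin cells, 47 in palbociclib cells, 42 in doxorubicin cells, and 33 in alisertib cells. The shares of all genes lower with each drug are those given above for the 42 genes.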

How the data were processed

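RNA from 24 SKBR3 libraries was sequenced, and the deposited table holds raw counts per gene, for which the authors aligned reads to GRCh37 with HISAT2 and counted them with StringTie. The labels name a stranded mRNA kit and the study's methods a stranded total RNA kit, and the counting settings are not given in the sources used here. Samples were grouped by their labels. From the counts, genes with enough counts (edgeR's filterByExpr, minimum count 10) entered the quasi-likelihood test of edgeR 4.0.16 (R 4.3.3) after TMM normalization, with a prior count of 2, and p-values were adjusted over all genes tested by the Benjamini-Hochberg method. Each group was compared with untreated day 0 in a fit of both groups, and drugs were compared with each other in a fit of all 24 libraries (14078 genes). Library totals of 29405121 to 44316330 counts limit the precision of genes of few counts. On simulated counts for bleomycin against untreated day 0 (13763 genes), 128 of 197 genes changed 2-fold were recovered (65%) with 11 false calls. For the DNA-damaging drugs against the others (14069 genes), 185 of 200 were recovered (92.5%) with 12 false calls. In the data many more genes were called, 25.3% lower and 24.1% higher in bleomycin cells against day 0. The simulations held no outlying libraries and no pairing, so these shares need not hold for the data. Alternatives were DESeq2 1.42.0, other size factors, filters and sample sets, a replicate block, untreated day 7 as the reference, and leaving out each library. Replicate numbers were taken to pair libraries where the deviations of all 3 same-numbered pairs correlated over 0.1, as in 11 of 28 pairs of groups, ND-646 and TVB-3166 among them and no pair with untreated day 0. The members and gene lists were chosen with earlier results of these data known. Genes described in full were BRCA1, BRCA2, and FANCB, the lowest and highest gene of each role by mean change over the drugs, the 5 highest and 5 lowest between DNA-damaging and other drugs, up to 2 genes of each further list each way, and the 5 genes most like BRCA2. A gene named by this rule is not reported here. Other repair genes with values were named after their values were seen. Promoters were taken from RefSeq (GRCh38.p14), and gene positions are those of GRCh37.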

Additional observations from a re-analysis of the deposited data

How the results depend on the processing

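Counts of the 47 genes called were recomputed under each alternative that applied to a comparison. This covered the comparisons with day 0, DNA-damaging against other drugs, bleomycin against doxorubicin, and ND-646 against TVB-3166. The 8 pairs of a DNA-damaging drug and another drug were fitted once only. Requiring a 2-fold change and an unadjusted p-value under 0.05 left 0 higher genes in ND-646, TVB-3166, bleomycin, doxorubicin, and alisertib cells and 1 in palbociclib cells, and 23, 21, 18, 1, and 0 lower genes in TVB-3166, bleomycin, palbociclib, doxorubicin, and alisertib cells. It left 0 genes either way between DNA-damaging and other drugs, 4 lower in bleomycin than in doxorubicin cells, and 6 lower in ND-646 than in TVB-3166 cells. With all 24 libraries in one fit, 3 genes were higher in ND-646 cells, 10 lower in alisertib cells, and 1 higher in untreated day-7 cells. With untreated day 7 as the reference, 0, 1, 2, 2, and 2 were higher in ND-646, TVB-3166, bleomycin, doxorubicin, and alisertib cells and 9 lower in alisertib cells. For untreated day 7 against day 0, DESeq2 called 1 lower and 1 higher, as did the replicate block. Against palbociclib and alisertib alone, 19 genes were lower and 2 higher with the DNA-damaging drugs, and against ND-646 and TVB-3166 alone 34 were higher. With only the libraries of the groups compared, 16 were lower in bleomycin than in doxorubicin cells, and 1 was lower in ND-646 than in TVB-3166 cells, or 4 with the replicate block, an alternative chosen after seeing the data. The block changed no other count by over 1.5 times. Leaving out single libraries gave 1 to 3 higher in ND-646 cells, 2 to 4 in TVB-3166 cells, 2 to 4 in bleomycin cells, 3 to 6 in palbociclib cells, 10 to 19 lower in alisertib cells, 3 to 6 lower between DNA-damaging and other drugs, 13 to 28 lower in bleomycin than in doxorubicin cells, and 8 to 17 lower in ND-646 than in TVB-3166 cells. Of 1666 alternative values of called changes of named genes, 1546 kept their direction and call, 120 missed the threshold, and 0 reversed. Of 1134 alternative values of changes of named genes that were not called, 59 passed the threshold and 44 changed sign. The cause of these shifts was not tested. Depth limits the genes with the lowest counts, FANCB, BRIP1, and EME1 in ND-646 cells among them.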

Other observations

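Genes of 4 other repair pathways had median changes closer to 0 than the 47 recombination and Fanconi genes with each drug except alisertib, where base excision repair genes (−0.28) lay below them (−0.20). These differences between lists were not tested. With each drug 17.7% to 27.7% of all genes were called in either direction taken alone. Of 18 end joining genes, 6 to 9 were lower and 1 to 3 higher with each drug, with medians from −0.41 in TVB-3166 cells (9 lower, 3 higher) to −0.14 in alisertib cells (7 lower, 3 higher). Of 7 mismatch repair genes, 4 were lower and 3 higher in palbociclib cells, where their median of −0.47 was the lowest of the 6 drugs. Of 19 nucleotide excision repair genes, 4 to 7 were lower with each drug, and medians lay between −0.21 and −0.08. Of 18 base excision repair genes, 10 were lower in TVB-3166, bleomycin, and doxorubicin cells, with medians of −0.39, −0.46, and −0.43, and 6 in alisertib cells, with a median of −0.28.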
